A study of Homo sapiens with 4 samples.

Results

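GAS5, SNHG1, SNHG5, SNHG6, SNHG7, SNHG8, SNHG12, SNHG15, SNHG16 and ZFAS1 are long noncoding RNA genes that carry small nucleolar RNAs (snoRNAs) in their introns. They were chosen by name as host genes known for 5′TOP promoters, and all 10 were found by Ensembl identifier among the 58735 genes of the count table. Their RNA was measured in MDA-MB-231 and SUM159 cells, established human triple-negative breast cancer lines grown in culture. Each line was exposed for 72 h to 1 µM mebendazole (MBZ), an anthelmintic drug that disrupts tubulin, or to its vehicle DMSO. Each of the 4 conditions was sequenced once, so no difference within a line has a replicate check and no p-value is given for it.

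A snoRNA host gene is transcribed and spliced, its introns are trimmed to snoRNAs, and the spliced exons remain as the long RNA that is measured here. Box C/D snoRNAs guide the 2′-O-methylation of ribosomal RNA and box H/ACA snoRNAs guide its pseudouridylation. Many host genes start, like the genes of ribosomal proteins, at a C followed by a tract of pyrimidines, the terminal oligopyrimidine motif (5′TOP) that ties translation to mTOR activity. Their spliced RNAs hold short reading frames, are engaged by ribosomes and are degraded by nonsense-mediated decay (NMD), so that they are known to build up when translation or NMD is blocked. GAS5 was named for its build-up in growth-arrested cells. By their RefSeq annotation the 10 genes hold 37 snoRNA genes, of which 28 are box C/D and 8 are box H/ACA by name. GAS5 holds 11 of them and SNHG1 holds 9.

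The label of a 5′TOP start was examined on RefSeq promoters (GRCh38.p14), which were matched for 8 of the 10 genes and not for SNHG6 and SNHG15. The windows below run 5′ to 3′ on the transcribed strand, from 30 bases before the annotated start to 30 bases from it on, and are shown because such a tract at the start is what the class name refers to. The capitals mark the longest run of C and T that touches the 10 bases on either side of the start.
SNHG5, chr6:85678704-85678763, minus strand: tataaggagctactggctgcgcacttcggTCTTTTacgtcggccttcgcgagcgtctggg
SNHG12, chr1:28581844-28581903, minus strand: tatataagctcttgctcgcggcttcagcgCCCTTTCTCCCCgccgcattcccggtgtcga
ZFAS1, chr20:49278612-49278671, plus strand: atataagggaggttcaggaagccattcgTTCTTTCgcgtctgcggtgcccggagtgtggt
SNHG7, chr9:136728155-136728214, minus strand: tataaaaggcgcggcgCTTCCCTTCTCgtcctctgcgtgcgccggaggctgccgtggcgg
SNHG8, chr4:118278732-118278791, plus strand: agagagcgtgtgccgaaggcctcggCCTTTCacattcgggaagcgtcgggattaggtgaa
SNHG16, chr17:76557734-76557793, plus strand: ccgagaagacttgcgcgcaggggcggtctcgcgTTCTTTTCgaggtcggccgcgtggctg
SNHG1, chr11:62855856-62855915, minus strand: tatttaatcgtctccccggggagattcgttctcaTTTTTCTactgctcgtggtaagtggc
GAS5, chr1:173869016-173869075, minus strand: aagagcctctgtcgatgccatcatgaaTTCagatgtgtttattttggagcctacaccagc

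The motif searched was a C followed by at least 4 bases that are each C or T, on the transcribed strand. In SNHG5, SNHG12 and ZFAS1 it began exactly at the annotated start, in 3 of 8 genes (37.5%), against 4.07% of 35116 RefSeq promoters. Within 10 bases of the start it was found in 6 of 8 (75.0%), against 33.5% of all promoters, 83.3% of 78 ribosomal protein genes and 60.0% of 15 other noncoding snoRNA hosts. In SNHG7 it began 1 base before the start, in a shorter run than the one in capitals. SNHG1 and GAS5 were the members without it. The start of the GAS5 transcript that GENCODE marks as canonical lies 1056 bases downstream of the RefSeq start, at another annotated start of the same gene, and there the motif begins exactly at the start.
GAS5, chr1:173867959-173868019, minus strand, GENCODE start: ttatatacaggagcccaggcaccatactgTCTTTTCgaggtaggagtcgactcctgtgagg
Over the canonical GENCODE starts of all 10 genes, the motif began exactly at the start in 3 (GAS5, SNHG12 and ZFAS1), against 2.67% of 58207 genes, and within 10 bases of it in 7, against 29.0%. At these starts SNHG5, SNHG6 and SNHG15 had none, so that for GAS5, SNHG1 and SNHG5 the result within 10 bases differed between the annotations. A match is a description of these letters, and which start these cells use cannot be read from counts per gene.

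The 4 libraries held between 17143139 and 24897586 counts, so that 3 counts correspond to 0.120 to 0.175 CPM (counts scaled to a common library size). The labelled lines were examined on receptor and lineage markers. PGR was at 0 counts in all 4 libraries, ESR1 had between 0 and 18 counts, and the mesenchymal marker VIM had between 20703 and 54409. ERBB2 had between 1216 and 1996 counts, while the epithelial cadherin CDH1 had 11 and 12 counts in MDA-MB-231 cells and 0 in both SUM159 libraries. The 12 proliferation genes moved in opposite directions in the lines. Their median level was 180 CPM with DMSO and 105 CPM with MBZ in MDA-MB-231 cells, but 24.7 CPM with DMSO and 102 CPM with MBZ in SUM159 cells, where all 12 were at least 1.5-fold higher with MBZ. In MDA-MB-231 cells 11 of the 12 were at least 1.5-fold lower, and 7 by total counts. The part of this difference in the results that follow was not tested. The stress genes ATF3, DDIT3 and GADD45A were higher in the library labelled MBZ than in that labelled DMSO in both lines (2.35, 1.40 and 1.53 as SUM159 log2 fold changes). DDIT3 and GADD45A were named after their values were seen. All 3 come from a list of 12 coding mRNAs known as NMD targets. Of these, 7 were at least 1.5-fold higher in SUM159, beside 21.5% of genes compared, and 0 were lower, beside 21.7%. ATF4 (-0.51), MAP3K14 (-0.52) and BAG1 (-0.06) of that list were below 0 there. The labels were not tested. The direction of each fold change in SUM159 rests on the labels of its libraries.

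With MBZ, RNA of 6 of the 10 host genes was higher in MDA-MB-231 cells, while SUM159 cells had members called in both directions. In MDA-MB-231, these were at least 1.5-fold higher (GAS5, SNHG12, ZFAS1, SNHG1, SNHG8 and SNHG15), where 18.3% of 15142 genes compared were. None of the 10 was at least 1.5-fold lower there, where 15.8% of genes were. In SUM159 cells SNHG15 and SNHG12 were at least 1.5-fold higher, 2 of 10 beside 21.5% of 15674 genes, and SNHG7, ZFAS1, GAS5 and SNHG16 were lower, 4 of 10 beside 21.7%. At 2-fold, GAS5 and SNHG12 were higher in MDA-MB-231 (2 of 10, beside 9.05% of genes), SNHG15 was higher in SUM159 (1 of 10, beside 12.7%) and GAS5, ZFAS1 and SNHG7 were lower there (3 of 10, beside 10.7%). Scaled by total counts, SUM159 had 3 of 10 at least 1.5-fold higher, with SNHG1 added (32.8% of genes), and 3 of 10 lower, with SNHG16 lost (12.8% of genes). The 10 had a median log2 fold change of 0.79 (MDA-MB-231) and -0.48 (SUM159), against -0.02 and -0.03 over all genes compared. Fold changes are differences of log2 CPM, MBZ over DMSO, with TMM scaling done within each line, and brackets give 95% Clopper-Pearson intervals that cover counting error only. In bulk RNA, fewer cells that express a gene and less RNA of it per cell cannot be told apart.

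**Figure D1:**
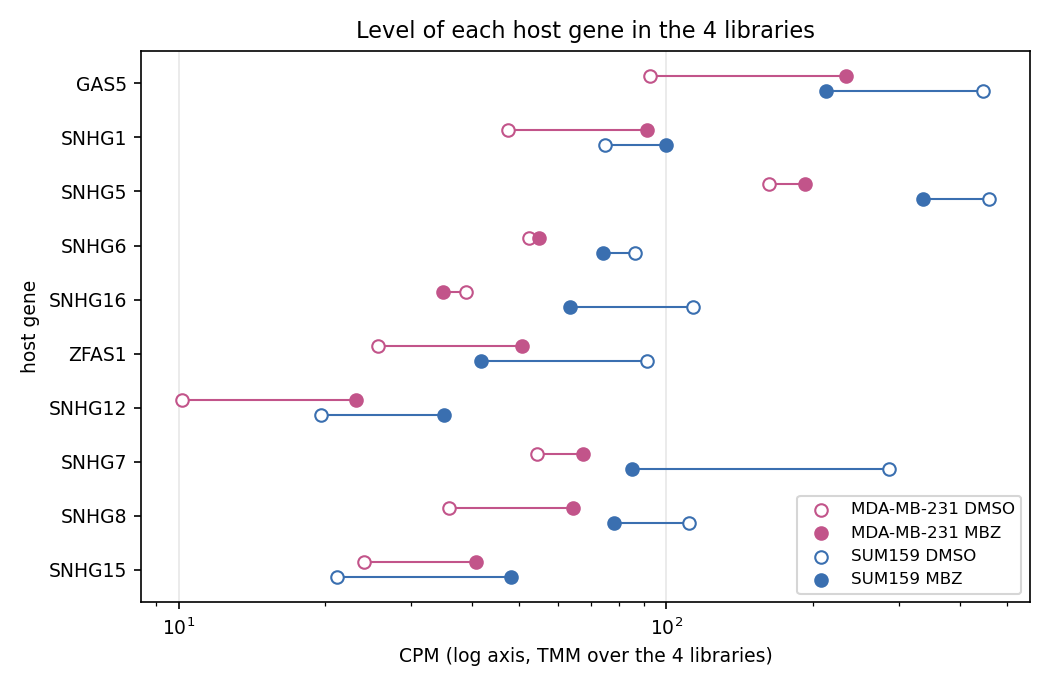
Level of each host gene in the 4 libraries, in CPM on a log axis after TMM normalization over the 4 libraries. Open points are DMSO and filled points are MBZ, with 1 library each and therefore no error bar. The filled point lies to the right of the open one for 9 of 10 genes in MDA-MB-231 and for 3 of 10 in SUM159, and the DMSO level was higher in SUM159 for 9 of 10.

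Among the hosts of box C/D snoRNAs, GAS5 (ENSG00000234741) had the largest increase in MDA-MB-231. Its counts went from 2156 (DMSO) to 4436 (MBZ) in MDA-MB-231 and from 7377 (DMSO) to 4390 (MBZ) in SUM159. The high library was thus the MBZ library in one line and the DMSO library in the other. The MDA-MB-231 log2 fold change was 1.31 [1.24, 1.39], a 2.49-fold higher level that exceeded 94.2% of the genes compared, whereas SUM159 had -1.07 [-1.12, -1.01], 2.09-fold lower. On the scale normalized over all 4 libraries, GAS5 stood at 92.8 CPM (MDA-MB-231) and 445 CPM (SUM159) under DMSO, and at 233 and 213 CPM under MBZ. The levels in the lines were therefore 2.26 apart on the log2 scale under DMSO and close to each other under MBZ.

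ZFAS1 (ENSG00000177410), which lies antisense to the start of ZNFX1 and hosts the SNORD12 family, had the same pattern. Its counts went from 597 to 961 in MDA-MB-231 (log2 fold change 0.96 [0.81, 1.11]), but from 1513 to 859 in SUM159 (-1.13 [-1.26, -1.01]). GAS5 and ZFAS1 were the members at least 1.5-fold higher in MDA-MB-231 and at least 1.5-fold lower in SUM159, 2 of 10 beside 2.92% of 13733 genes compared in both lines.

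SNHG1 (ENSG00000255717), the host of SNORD22 and SNORD25 to SNORD31, was higher with MBZ in both lines, though by less in SUM159. The counts in MDA-MB-231 were 1100 under DMSO and 1738 under MBZ (log2 fold change 0.93 [0.82, 1.04]). In SUM159 they were 1238 and 2061 (0.42 [0.32, 0.52]), a change under 1.5-fold that passed it when scaled by total counts (0.72).

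SNHG5 (ENSG00000203875), the host of SNORD50A and SNORD50B, had the most counts of the 10 in both lines with DMSO. It changed by less than 1.5-fold in each line. The counts were 3784 and 3656 in MDA-MB-231 (log2 fold change 0.22 [0.16, 0.29]) and 7615 and 6918 in SUM159 (-0.45 [-0.50, -0.41]). SNHG6 (ENSG00000245910; chr8:66920561-66926398, minus strand), which carries SNORD87, had 1213 and 1040 counts in MDA-MB-231 (0.05 [-0.07, 0.17]) and 1426 and 1530 in SUM159 (-0.21 [-0.32, -0.11]). In MDA-MB-231 cells the interval of SNHG6 included 0, the only one of the 20 to do so. SNHG16 (ENSG00000163597), the host of SNORD1A, SNORD1B and SNORD1C, was the member lower in both lines. Its counts were 901 and 662 in MDA-MB-231 (-0.17 [-0.32, -0.03]) and 1875 and 1311 in SUM159 (-0.83 [-0.94, -0.73], 1.78-fold lower, but -0.53 by total counts). Scaling by total counts turned the sign of SNHG6 in SUM159 (0.09) and of SNHG16 in MDA-MB-231 (0.09).

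The hosts of box H/ACA snoRNAs did not move together. SNHG15 (ENSG00000232956; chr7:44983019-44986961, minus strand), the host of SNORA9, had 559 and 775 counts in MDA-MB-231 and 350 and 992 in SUM159. Both MBZ libraries were the high ones, with log2 fold changes of 0.74 [0.59, 0.90] and 1.19 [1.01, 1.37]. SNHG8 (ENSG00000269893), the host of SNORA24, had 834 and 1225 counts in MDA-MB-231 (0.83 [0.70, 0.96]) and 1843 and 1608 in SUM159 (-0.51 [-0.61, -0.42]).

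SNHG7 (ENSG00000233016), which carries SNORA17A and SNORA17B, had the largest decrease of the 10. Its counts in SUM159 were 4743 under DMSO and 1758 under MBZ, 3.36-fold lower (log2 fold change -1.75 [-1.83, -1.67]), a rank above 3.33% of the genes compared. The MDA-MB-231 counts were 1265 and 1282 (0.29 [0.18, 0.40]). The SUM159 DMSO library stood apart, at 286 CPM against 54.4 to 85.2 CPM in the other libraries on the scale over all 4.

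SNHG12 (ENSG00000197989) carries snoRNAs of both classes, as GAS5 does by RefSeq names (10 box C/D and 1 box H/ACA). SNHG12 was the least abundant member by count in MDA-MB-231. It went from 236 to 440 counts there and from 324 to 721 in SUM159. The log2 fold changes were 1.17 [0.94, 1.41] and 0.84 [0.65, 1.03]. SNHG12 and SNHG15 were the members at least 1.5-fold higher in both lines, 2 of 10 beside 6.12% of 13733 genes.

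**Figure D2:**
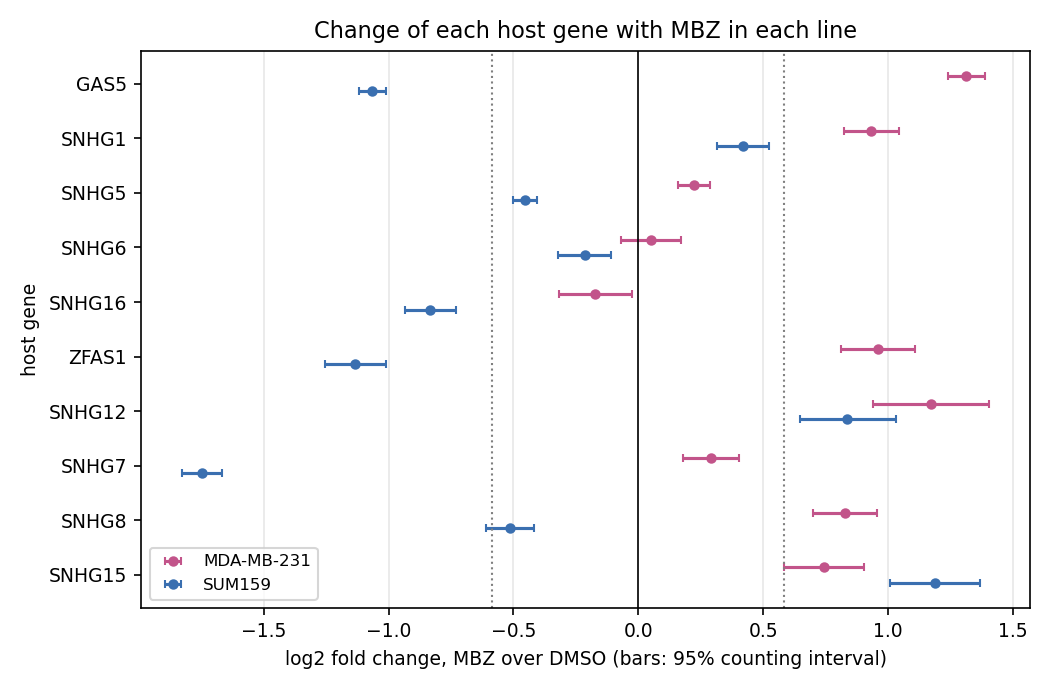
Log2 fold change of each host gene, MBZ over DMSO, in MDA-MB-231 and SUM159 cells, 1 library per condition. Bars are 95% counting intervals and dotted lines mark a 1.5-fold change. The intervals of GAS5, SNHG5, SNHG7, SNHG8 and ZFAS1 lie on opposite sides of 0 in the lines, while those of SNHG1, SNHG12 and SNHG15 lie above 0 in both.

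A change shared by the lines was tested with edgeR's quasi-likelihood test, in which a difference between the responses of the lines is the only spread. SNHG15 (log2 fold change 1.00, SE 0.30), SNHG12 (1.04, SE 0.33) and SNHG1 (0.71, SE 0.29) had unadjusted p-values of 0.0130, 0.0156 and 0.0463. These 3 of 10 stand beside 3.91% of 16100 genes that were higher at the same threshold. With Benjamini-Hochberg adjustment over all 16100 genes, their edgeR p-values were 0.591, 0.609 and 0.691 and none of the 10 passed 0.05, which 1 of the 16100 genes did. DESeq2's Wald test gave 2 members, both higher, under an unadjusted p of 0.05 (beside 1.08% of 32295 genes higher) and likewise 0 after adjustment. Without line in the edgeR model, SNHG15 alone had an unadjusted p under 0.05, 1 of 10 beside 0.658% of the 16100 genes. For the other 7 members the shared log2 fold change lay between -0.69 (SNHG7) and 0.19 (SNHG8).

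**Figure D3:**
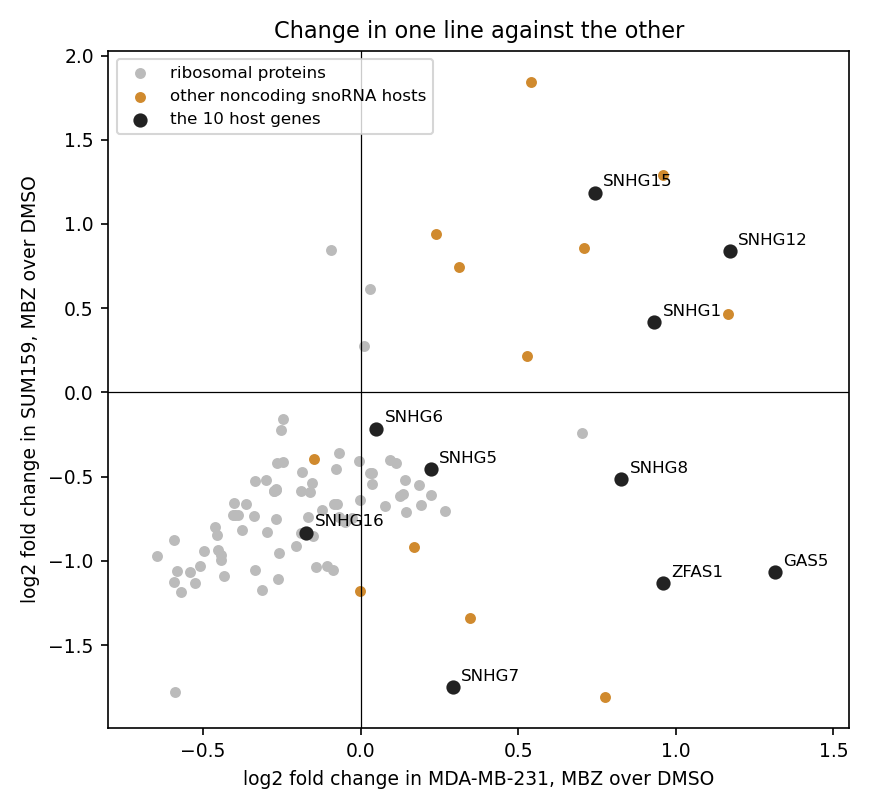
Log2 fold change in SUM159 against that in MDA-MB-231 for the 10 host genes (black, named), other noncoding snoRNA hosts (orange) and ribosomal protein genes (grey), 1 library per condition and no error bars. The 10 spread from SNHG15 and SNHG12 at the upper right to GAS5 and ZFAS1 at the lower right, with SNHG16 beside the ribosomal protein genes.

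SNHG16 and SNHG5 were more abundant in SUM159 than in MDA-MB-231. In the same edgeR fit, where the DMSO and MBZ libraries of a line stand in for replicates, all 10 line coefficients were above 0. SNHG16 (log2 difference 1.25, SE 0.31, adjusted p 0.0295) and SNHG5 (1.20, SE 0.34, adjusted p 0.0493) passed an adjusted p of 0.05, 2 of 10 beside 11.6% of the 16100 genes tested. SNHG7 had the largest difference (1.41, SE 0.51), with an adjusted p of 0.0978. With every gene of at least 1 count in the fit, GAS5 (adjusted p 0.0413) and SNHG7 (0.00273) passed as well, 4 of 10 beside 7.65% of the 32295 genes in that fit. Between the DMSO libraries alone, the log2 difference of SUM159 over MDA-MB-231 ran from -0.19 for SNHG15 to 2.26 for GAS5 and 2.40 for SNHG7.

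Levels per length depended on the gene model. Per kilobase of the canonical GENCODE transcript, SNHG5 (124 CPM per kb) and GAS5 (121 CPM per kb) led in MDA-MB-231 with DMSO, and GAS5 (580 CPM per kb) led in SUM159 with DMSO. SNHG12 was lowest in MDA-MB-231 with DMSO (5.43 CPM per kb) and SNHG15 in SUM159 with DMSO (7.05 CPM per kb). Per kilobase of all annotated exons, GAS5 still led in SUM159 with DMSO (90.3 CPM per kb), but in MDA-MB-231 SNHG6 (20.7 CPM per kb) stood above GAS5 (18.8 CPM per kb). No error can be given for these values, and neighbours in this order cannot be separated with 1 library each.

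Summed over the 10, host gene RNA took 12645 counts (DMSO) and 16215 counts (MBZ) in MDA-MB-231, or 0.0508% [0.0499, 0.0517] and 0.0946% [0.0931, 0.0961] of the library. In SUM159 cells the sums were 28304 and 22148 counts, or 0.151% [0.150, 0.153] and 0.117% [0.116, 0.119]. The log2 fold change of the sum was 0.63 [0.60, 0.66] in MDA-MB-231 and -0.67 [-0.70, -0.64] in SUM159. The shares of the lines thus drew closer with MBZ.

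Ribosomal protein genes, which share the 5′TOP motif, give a second scale. They have many near-identical processed pseudogenes, which makes their counts uncertain. Their summed counts changed by -0.29 (MDA-MB-231) and -0.83 (SUM159) on the log2 scale. Per 1000 ribosomal protein counts MDA-MB-231 had 8.43 host gene counts under DMSO and 15.9 under MBZ, and SUM159 had 13.3 and 14.8. Relative to this sum, all 10 host genes were above 0 in MDA-MB-231, beside 68.7% of all genes compared, and 6 of 10 were in SUM159, beside 85.7%. On this scale the median host gene stood at 1.07 against 0.27 over all genes in MDA-MB-231, and at 0.34 against 0.79 in SUM159, below the median of all genes. SNHG15 (log2 2.01), SNHG12 (1.66), SNHG1 (1.24) and SNHG6 (0.61) were the highest of the 6. This scaling was chosen after seeing the data. It shifts every gene of a line alike, and that shift also turned the sign of the summed change in SUM159 (0.15).

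Other genes of the same biology were compared at the same 1.5-fold threshold. Of 17 other noncoding snoRNA hosts, 4 of 12 compared were at least 1.5-fold higher in MDA-MB-231 with 0 lower (median log2 fold change 0.44), and 6 of 15 were higher and 5 lower in SUM159 (0.22). EPB41L4A-AS1 had log2 fold changes of 0.77 [0.57, 0.98] and -1.81 [-1.95, -1.67], the pattern of GAS5. SNHG4 (0.96 and 1.29) and SNHG17 (0.71 and 0.85) were higher in both lines, like SNHG12 and SNHG15, and were named after their values were seen. Among hosts averaging 100 counts or more, SNHG30 was the highest in MDA-MB-231 (1.17) and SNHG10 in SUM159 (1.85). DANCR was lower by less than 1.5-fold in both (-0.15 and -0.40). Protein-coding snoRNA hosts had 1 of 18 higher and 2 lower in MDA-MB-231 (median -0.12), and 1 higher and 6 lower in SUM159 (-0.26). By total counts 0 were lower in MDA-MB-231 and 3 in SUM159. EEF2, RACK1, EEF1B2 and TPT1 are on this list and on that of other 5′TOP mRNAs, so that 2 of the lower genes in MDA-MB-231 and 4 in SUM159 are counted in both.

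Of 79 ribosomal protein genes, 1 was higher and 4 lower in MDA-MB-231 (median -0.20), and 2 were higher and 53 lower in SUM159 (-0.71). Scaled by total counts, the lower ones were 0 in MDA-MB-231 and 21 in SUM159. Among those averaging 100 counts or more, RPL26 was the highest in MDA-MB-231 (0.70) and RPL22 the lowest in SUM159 (-1.78). Of 15 other 5′TOP mRNAs compared, 5 were lower in MDA-MB-231 and 13 in SUM159, with none higher in either (medians -0.37 and -1.10). By total counts these were 0 and 10. EEF2, the elongation factor that moves the ribosome along the mRNA, had log2 fold changes of -0.62 and -1.42.

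**Figure D4:**
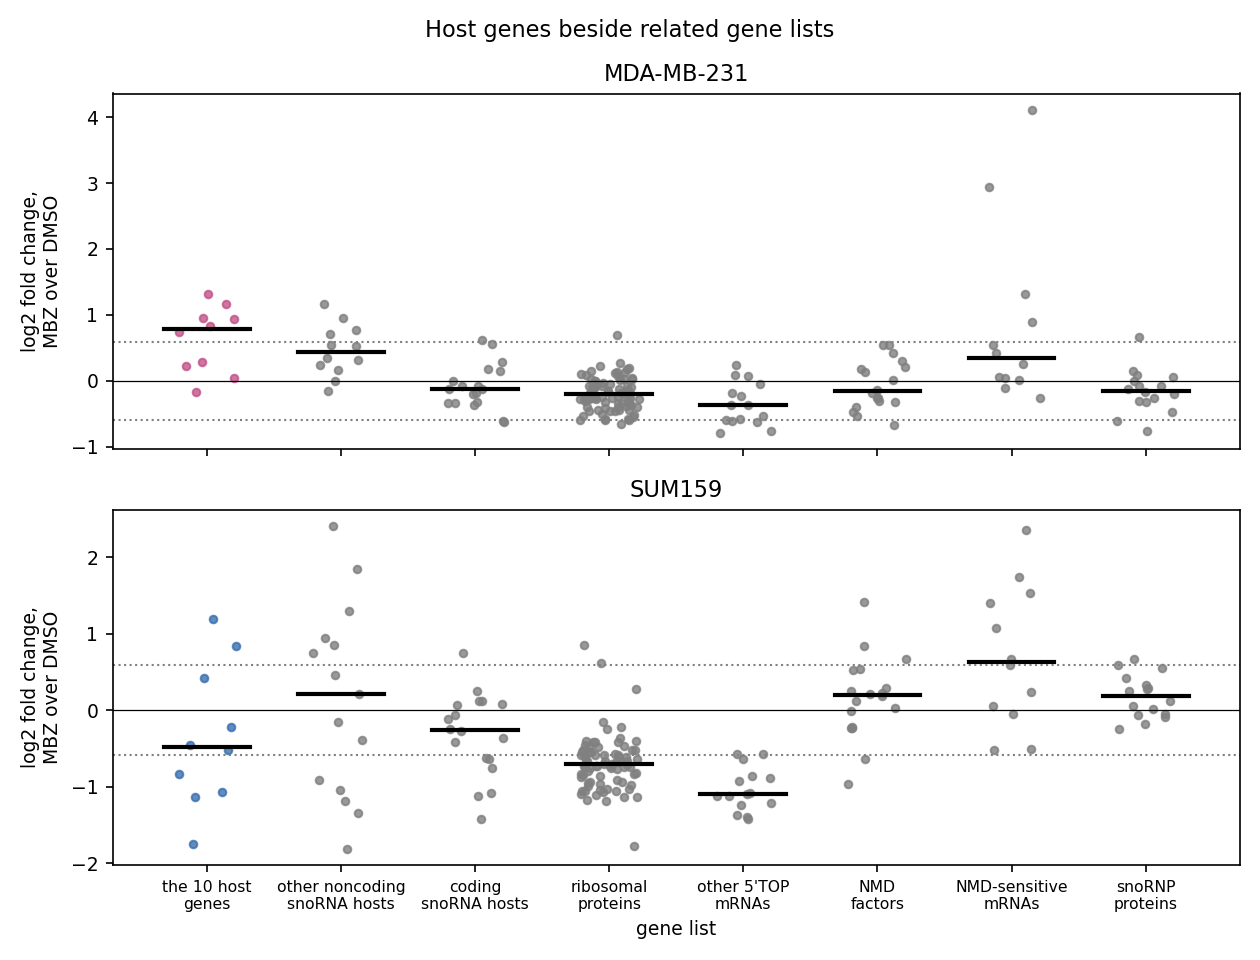
Log2 fold change, MBZ over DMSO, of each gene compared in MDA-MB-231 (upper) and SUM159 (lower) cells, by list. Black bars are list medians, dotted lines mark a 1.5-fold change, and the sideways spread of points has no meaning. The 10 host genes have the highest median in MDA-MB-231 (0.79), and in SUM159 their median (-0.48) lies between those of the coding hosts (-0.26) and the ribosomal proteins (-0.71).

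Some coding mRNAs known as NMD targets were higher in both lines, and none was at least 1.5-fold lower in either. Of 12, 4 were at least 1.5-fold higher in MDA-MB-231 with 0 lower (median 0.35), and 7 were higher and 0 lower in SUM159 (0.63). ATF3, a stress-induced transcription factor, had 89 and 1276 counts in MDA-MB-231 and 114 and 726 in SUM159 (log2 fold changes 4.11 and 2.35). DDIT3, a stress transcription factor (2.93 and 1.40), and GADD45A, a growth arrest gene (1.33 and 1.53), were also higher in both and were named after their values were seen. MAP3K14 was higher in MDA-MB-231 (0.89) and had a log2 fold change of -0.52 in SUM159. Of 18 NMD factors, 0 were higher and 1 was lower in MDA-MB-231 (median -0.16) and 3 were higher and 2 lower in SUM159 (0.20). SMG5 is on both NMD lists and is counted among the higher genes of each in SUM159 (0.67). RBM8A, a subunit of the exon junction complex, was the lower one in MDA-MB-231 (-0.68). Its partner MAGOHB was the highest in SUM159 (1.41), and the endonuclease SMG6 was lower there (-0.96).

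Genes of snoRNA-binding proteins and of 5′TOP regulation were compared in the same way. Of 16 snoRNP genes, 1 was higher and 2 lower in MDA-MB-231 (median -0.15) and 1 was higher and 0 lower in SUM159 (0.19). NOP58, a core protein of box C/D snoRNPs, had log2 fold changes of 0.66 and 0.55. FBL, the methyltransferase of the same particles, had -0.76 and 0.29. Of 10 genes of mTOR and 5′TOP regulation, none passed 1.5-fold in MDA-MB-231 (median -0.01), while 2 were higher and 2 lower in SUM159 (-0.22). Among the latter were EIF4EBP1 (0.71) and DEPTOR (-2.46), an inhibitory subunit of mTOR complexes.

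Scaling by total counts moved other lists as well, and all genes with them. In SUM159, 32.8% of 15674 genes compared were at least 1.5-fold higher by that scaling, and 12.8% at least 1.5-fold lower. The shares over all genes in MDA-MB-231 are not given here, so the list counts there have no such comparison. At least 1.5-fold higher by that scaling were 7 of 12 other noncoding hosts in MDA-MB-231 and 7 of 15 in SUM159, 6 and 7 of 12 NMD-sensitive mRNAs, 3 and 6 of 18 NMD factors, 1 and 6 of 16 snoRNP genes, and 1 and 3 of 10 genes of mTOR and 5′TOP regulation.

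In the test of a change shared by the lines, edgeR gave no gene of these lists an adjusted p under 0.05. Its unadjusted p was under 0.05 for 4 of the NMD-sensitive mRNAs, 2 of the other noncoding hosts, 2 of the other 5′TOP mRNAs and 1 ribosomal protein gene, and for 0 genes of the remaining lists, beside 7.14% of all genes in either direction. The NMD-sensitive mRNAs and noncoding hosts among these were higher, and the others lower. DESeq2's Wald test gave adjusted p-values under 0.05 for 3 NMD-sensitive mRNAs, ATF3 (4.09e-05), DDIT3 (0.0157) and GADD45A (0.0247), and for no gene of the other lists. Its unadjusted p was under 0.05 for 15 ribosomal protein genes, 8 other 5′TOP mRNAs, 4 NMD-sensitive mRNAs, 2 coding hosts, 1 other noncoding host and 1 line marker, beside 2.88% of all genes. The NMD-sensitive mRNAs and the noncoding host were higher and the rest lower.

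Neighbouring and overlapping genes bear on these counts, since the strand setting of the counting is not given in the sources used here. By GENCODE release 44, 7 of the 10 host genes share exonic bases with a gene on the opposite strand, and SNHG1 and SNHG15 share none with any gene other than the snoRNA genes they host. SNHG8 shares 2487 bases with PRSS12, which had 857 and 378 counts in MDA-MB-231 (log2 fold change -0.91 [-1.09, -0.73]), the opposite direction to SNHG8, and 186 and 176 in SUM159 (-0.40 [-0.70, -0.09]), the same direction. ZFAS1 shares 249 bases with ZNFX1, which had log2 fold changes of 0.62 [0.56, 0.69] and -0.20 [-0.28, -0.12]. SNHG7 shares 1482 bases with DIPK1B, which had 81 and 212 counts in MDA-MB-231 and 11 and 20 in SUM159. SNHG12 shares 8 bases with TRNAU1AP, whose log2 fold changes were -0.32 and 0.86. MCMDC2 shares 1488 bases with SNHG6 and had 5 to 10 counts. The part of shared reads in these values was not tested.

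SNHG1 and SLC3A2, which encodes the heavy chain of amino acid transporters, start 51 bases apart on opposite strands. SLC3A2 had 4765 and 13223 counts in MDA-MB-231 (log2 fold change 1.74 [1.70, 1.79]), and 3497 and 7254 in SUM159 (0.74 [0.68, 0.79]). Both genes of this pair were higher with MBZ in both lines. ZBTB37, which starts 800 bases into the GAS5 span on the other strand, had log2 fold changes of 0.50 [0.28, 0.72] and -0.27 [-0.53, -0.01].

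The snoRNA genes that GENCODE lists inside the host genes were nearly absent from the counts. GENCODE lists 0 inside GAS5, so the 11 that RefSeq places there were not examined. It lists 26 inside the other host genes, all of them in the count table, and 22 were at 0 in all 4 libraries. These 22 are the ones that lie wholly inside an annotated exon of a host transcript, where counting in union mode gives a read that overlaps both genes to neither, so that their counts set no limit on their level. The other 4 had at most 23 counts. SNORD99, inside SNHG12, had 9 and 9 counts in MDA-MB-231 and 5 and 23 in SUM159, while SNORD12B, inside ZFAS1, had 13 and 8, and 2 and 7. The libraries were made from mRNA, so levels of mature snoRNAs cannot be read from them.

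The genes most like the median host gene were taken by Euclidean distance over both log2 fold changes and the DMSO difference between the lines (0.79, -0.48 and 1.52), among 10956 genes outside the lists with a mean of at least 100 counts. The nearest were SLC2A6 (distance 0.053), TRPM7 (0.124), LYSMD1 (0.161), SLC38A2 (0.166) and TMEM50B (0.174). All 5 code for proteins.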

How the data were processed

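Poly-A mRNA of the 4 cultures was sequenced as 150-base paired reads. Per the labels and the study's methods, the authors aligned reads to GRCh38 with STAR 2.5 and counted them per gene with HTSeq 0.6.1 in union mode, and the deposited values are whole-number counts without normalization; edgeR 3.16.5 is also named in the submitters' processing notes. The annotation release and strand setting are not given in the sources used here.

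From these, edgeR 4.0.16 (R 4.3.3) gave CPM and fold changes (prior count 0.125, TMM within each line), and genes were compared where both libraries averaged 10 counts or more. Levels used TMM over the 4 libraries. Clopper-Pearson intervals were computed from each gene's reads in the MBZ library out of those in both. They cover counting error at most, and may be too narrow for it, because PCR reads that carry no molecular identifier are not independent. The model of line and treatment was fitted by edgeR's quasi-likelihood method on 16100 genes (filterByExpr, 1 residual degree of freedom, common biological coefficient of variation 0.323), with Benjamini-Hochberg adjustment. Its p-values do not measure the spread between cultures. The functions were tested on simulated data with a biological coefficient of variation below 0.323 and treatment changes alike in both lines. That setting does not cover changes that differ between the lines. Alternatives were TMM over 4 libraries, DESeq2 1.42.0 size factors and Wald test, RLE, total counts, a prior count of 2, a fold of 2, other count minimums and models without line or treatment.

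The members and gene lists were chosen with earlier results of these data known. Besides the members, the genes named were the highest and lowest of each list in each line that averaged 100 counts or more, genes that overlap a member or start within 1000 bases of it, and the 5 nearest genes; not all are reported. Transcript coordinates are those of GENCODE release 44. Some results are not reported here.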

Additional observations from a re-analysis of the deposited data

Results flagged for a closer look

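Several results pointed in opposite directions in the lines, with counting intervals on opposite sides of 0. With 1 library per condition these differences were not tested. For the host genes, the log2 fold change in MDA-MB-231 cells minus that in SUM159 cells was 2.38 for GAS5, 2.09 for ZFAS1, 2.04 for SNHG7, 1.34 for SNHG8 and 0.68 for SNHG5, and it was 1.30 for the sum of the 10. Among the genes beside them it was 0.77 for ZBTB37 and 0.82 for ZNFX1, and -1.18 for TRNAU1AP.

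Among other genes it was 2.58 for EPB41L4A-AS1 and 1.69 for SNHG32, both noncoding snoRNA hosts. It was 1.41 for MAP3K14, -0.93 for SMG5 and 0.78 for UPF3A, which belong to the NMD lists, 0.94 for the ribosomal protein gene RPL26 and -1.05 for FBL. For the mTOR genes EIF4EBP1 and RPS6KB1 it was -1.13 and 0.70. The proliferation genes PLK1, AURKA and MCM2 had -4.26, -3.17 and -2.35, the reverse of the direction of GAS5.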

How the results depend on the processing

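The groups share only replicate number 1, so libraries could be paired by line only. The line term of the shared test did this, and its treatment term compared MBZ with DMSO within each line. Of 80 host gene fold changes recomputed under other scalings and prior counts, 60 moved by less than their counting interval, 18 moved beyond it with the same sign and 2 reversed, all 20 under scaling by total counts. That scaling raised the median of all genes by 0.27 (MDA-MB-231) and 0.30 (SUM159) on the log2 scale, changed the SUM159 calls from 2 higher and 4 lower to 3 and 3 (SNHG1 gained at 0.72, SNHG16 lost at -0.53), and turned SNHG16 in MDA-MB-231 to 0.094 and SNHG6 in SUM159 to 0.086. The summed log2 fold change became 0.90 and -0.37 by total counts, 0.58 in MDA-MB-231 by DESeq2 size factors, and 0.92 and 0.15 relative to the ribosomal protein genes, a scale that shifts all genes of a line alike. At a fold of 2, 2 host genes were called in MDA-MB-231, both higher, and in SUM159 1 was higher and 3 were lower. Without line in the model, 1 host gene had an unadjusted p under 0.05 for treatment and was higher, beside 0.658% of 16100 genes. With every gene of at least 1 count, 4 passed an adjusted p of 0.05 between lines and were higher in SUM159, beside 7.65% of 32295 genes. Over the alternatives, adjusted p-values between lines ran from 0.00581 to 0.0380 for SNHG16 and from 0.0130 to 0.0478 for SNHG5. Depth limits the intervals, but the unmeasured spread between cultures is not part of them.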

Other observations

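SNHG29 and SNHG32, noncoding snoRNA hosts outside the 10, were lower with MBZ in SUM159 cells. SNHG29 had 10498 counts with DMSO and 5760 with MBZ there (log2 fold change -1.18 [-1.23, -1.14]), and 8676 and 7180 in MDA-MB-231 cells (0.00 [-0.05, 0.04]). SNHG32 had 3353 and 1652 counts in SUM159 cells (-1.34 [-1.42, -1.25]), and 1982 and 2088 in MDA-MB-231 cells (0.35 [0.26, 0.44]). Both were named after their values were seen.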
